A study of Mus musculus with 36 samples.

Results

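The lineage transcription factors of mouse eosinophils were followed from the bone marrow, where eosinophils are made, through blood into tissues. They were also compared between small intestine eosinophils with and without Nmur1, which encodes a neuromedin U receptor. The set held 10 genes chosen by symbol: Cebpa, Cebpb, Cebpe, Spi1, Id1, Id2, Gata1, Gata2, Irf8 and Gfi1. All 10 were among the 9844 genes of the tissue table, and all 10 passed the filter on low values. In the table of sorted cells, which held 8001 genes, 6 were present (Cebpb, Cebpe, Spi1, Gata1, Gata2 and Id2), and all 6 passed the filter. Cebpa, Id1, Irf8 and Gfi1 were not analysed in sorted cells.

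Total eosinophils of wildtype C57BL/6 mice gave 24 libraries: 3 of bone marrow, 4 of blood, 4 of spleen, 3 of lung, 3 of skin, 3 of colon and 4 of small intestine. A second set of 11 libraries came from the small intestine of NMUR1-TdT reporter mice, also on C57BL/6, with 5 libraries of Nmur1+ and 6 of Nmur1- eosinophils, called positive and negative below. How cells were isolated, and the gates used, are not stated in the labels. All mice were 8 to 12 weeks old and at steady state, and males and females were pooled, so no group represents 1 sex. The libraries were full-length Smart-seq2 libraries, and values are TPM, a normalised transcript abundance that divides by transcript length. The labels do not say whether replicates came from separate animals, and p-values therefore reflect variation among libraries that may be technical. Because these are bulk samples, fewer cells of a type and less RNA per cell cannot be told apart.

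Blood cell fates are set by a small group of transcription factors that antagonise or assist each other. C/EBP proteins and PU.1 (Spi1) drive myeloid differentiation, with C/EBPalpha acting in early progenitors and C/EBPepsilon in the terminal differentiation of granulocytes. GATA-1, which also governs red cells, megakaryocytes and mast cells, is required for eosinophil formation through an enhancer in its own gene, and GATA-2 can direct progenitors to eosinophils and basophils. IRF8 and the repressor GFI1 act in the choice between monocytic and granulocytic fates, and IRF8 also acts in eosinophil progenitors. ID1 and ID2 lack a DNA-binding domain and hold E proteins off their E-box sites.

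Promoter sequences from RefSeq (GRCm38.p6) were held for 7 of the 10 genes in 10 windows. Cebpe, Spi1 and Id1 were not matched. The windows below are the 250 bases before a start site of 4 genes that the results turn on: Cebpa and Gfi1, which were highest in marrow, Cebpb, which was highest in lung, and Gata1, which was highest in skin. All 4 lie within annotated gene spans of GENCODE, and none overlaps an exon. The Cebpa and Cebpb windows end just before their own genes begin, so the spans around them are those of other genes. The Gfi1 and Gata1 windows lie inside their own genes. Capitals mark matches, on either strand, to AGGAAG (Ets factors such as PU.1), TTNNGNAA (C/EBP), CANNTG (E-box), AATCAC (GFI1) and 4 GATA words, which are AGATAA, its variant TGATAA, its variant AGATAG and its variant TGATAG.
Cebpa, chr7:35119043-35119292, plus strand: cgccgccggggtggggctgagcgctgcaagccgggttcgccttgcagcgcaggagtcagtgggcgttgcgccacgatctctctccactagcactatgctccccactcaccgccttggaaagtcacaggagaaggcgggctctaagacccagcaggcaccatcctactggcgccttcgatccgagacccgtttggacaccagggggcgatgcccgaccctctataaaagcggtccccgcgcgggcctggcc
Cebpb, chr2:167688665-167688914, plus strand: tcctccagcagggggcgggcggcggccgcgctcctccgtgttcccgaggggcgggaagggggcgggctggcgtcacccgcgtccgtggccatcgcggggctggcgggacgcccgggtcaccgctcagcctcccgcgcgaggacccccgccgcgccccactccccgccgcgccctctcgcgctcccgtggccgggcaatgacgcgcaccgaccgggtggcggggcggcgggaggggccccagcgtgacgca
Gfi1, chr5:107724344-107724593, minus strand: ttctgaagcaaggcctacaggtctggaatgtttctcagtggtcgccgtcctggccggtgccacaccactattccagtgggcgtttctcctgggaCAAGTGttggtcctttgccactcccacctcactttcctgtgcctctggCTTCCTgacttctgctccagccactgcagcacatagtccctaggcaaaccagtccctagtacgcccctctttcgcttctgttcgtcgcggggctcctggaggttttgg
Gata1, chrX:7967911-7968160, minus strand: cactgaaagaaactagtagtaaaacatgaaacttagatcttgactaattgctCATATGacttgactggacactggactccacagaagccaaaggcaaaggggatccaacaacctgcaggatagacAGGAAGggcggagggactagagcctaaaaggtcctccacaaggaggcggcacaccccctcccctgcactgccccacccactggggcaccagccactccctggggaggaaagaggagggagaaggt
The Cebpa and Cebpb windows held none of these words. The Gfi1 window shown held an E-box word and an Ets word that start 156 and 108 bases before the start site. The Gata1 window held the same kinds of word at 198 and 125 bases. Another Gfi1 window (chr5:107725806-107726055), which lies in an exon, held a C/EBP word at 143 bases and an E-box word at 42 bases. Across the 10 windows, the Ets word was in 2, against 29.5% of 32851 windows of all genes. An E-box word was in 5 (66.2%), the C/EBP word in 2 (36.8%), the GFI1 word in 1 (9.14%) and a GATA word in 0 (26.5%). A match is only a description of the letters, and its absence says nothing about the factor.

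The cells carried the defining receptors of eosinophils. Siglecf, Ccr3 and Il5ra were above 0 in all libraries, and their tissue means ranged from 119 to 296 TPM, from 310.5 to 1288 TPM and from 27.7 to 89.7 TPM. The granule genes Epx and Prg2 were highest in marrow (1520 and 72330 TPM) and next in spleen (114 and 7866 TPM), and Epx was listed at 0 in all 3 colon libraries. Nmur1 itself was at 27.8, 52.2, 25.9, 53.1 and 45.1 TPM in the positive libraries and at 15.6, 0, 5.32, 8.03, 7.83 and 7.13 TPM in the negative ones, with no overlap. Marrow libraries also carried genes from lists drawn up for other cells, and which cells expressed them was not tested. A list of neutrophil and granulocyte precursor genes without Retnlg, which was abundant in all groups, had 16 of 17 members in the table and summed to 52740 to 61180 TPM in marrow. The sum was 1017 to 9661 TPM in spleen (highest in replicate 4) and 190 to 665 TPM in the other tissues. The list of progenitor and dividing-cell genes (7 of 8 members) summed to 318 to 332 TPM in marrow and to at most 91.8 TPM elsewhere. Monocyte and macrophage genes (6 of 14) summed to 4424 to 4943 TPM in marrow and to 139 to 884 TPM in the other tissues, with C1qa and C1qb at 0 in blood. In colon, Elane, Mpo, Prtn3, Ctsg and S100a8 were at 0 in every library. Mast cell and basophil genes (5 of 10) summed to 114 to 210 TPM in marrow and to 321 to 349 TPM in lung. Cpa3, Mcpt8, Fcer1a and Ms4a2 were at 0 in lung, colon and small intestine, so Hdc alone made up the sum there. In skin the 5 genes summed to 349, 299.7 and 551 TPM in replicates 1, 2 and 4, with only Mcpt8 at 0. A high sum can thus come from Hdc alone. Lung libraries held 7770 to 7876 genes at 1 TPM or more, fewer than the 8539 to 9325 of the other tissues, and the part of this in the lung differences was not tested. Each comparison with marrow below is thus also one of libraries high against libraries low in the first 3 lists. The part of these lists in the differences was not tested.

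**Figure D1:**
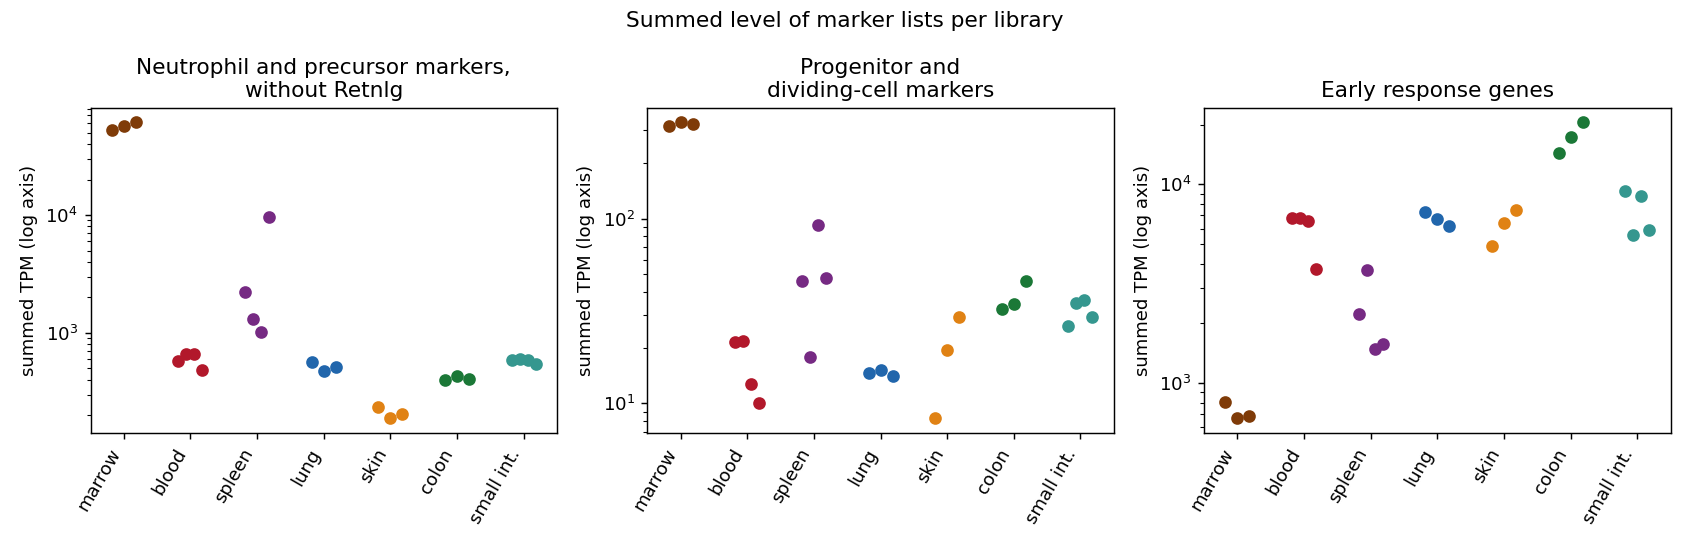
Summed TPM (log axis) of 3 marker lists in each library (points) of the 7 tissues. Marrow libraries lie highest for neutrophil and precursor markers and for dividing-cell markers, and lowest, at 669 to 808 TPM, for early response genes.

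Changes below are differences of the mean log2(TPM + 1), with the change of that comparison's median gene subtracted and a 95% interval. The median gene itself moved by -0.59 in lung against marrow, by -0.43 in lung against blood and by 0.22 in positive against negative cells. Calls are limma tests against 0 before that shift, at a Benjamini-Hochberg adjusted p under 0.05 over all genes tested. Median-ratio scaling changed the share of calls that were upward from 27% to 38.4% in lung against marrow, and from 51.4% to 37.8% in spleen, 54.1% to 40.4% in skin and 53.7% to 43.4% in colon against marrow. Against blood that share went from 25.2% to 48.5% in lung and from 61.8% to 51.1% in skin, and in the sort it went from 63.6% to 37.9%.

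All 10 factors differed among the 7 tissues by limma's moderated F-test, as did 81.1% of the 9806 genes tested. Id2 had the largest F (117.6, limma adjusted p = 3.7e-15) and Gata2 the smallest (3.14, limma adjusted p = 0.0259). The Gata2 call ended without spleen replicate 2 or 3 and with a pseudocount of 5, with limma adjusted p up to 0.0733. Against marrow, 8 of the 10 factors were called in blood (34.6% of all genes), 4 higher (15.3% of all genes) and 4 lower (19.3%). In spleen 7 were called (31.1%), 3 higher (16%) and 4 lower (15.1%). In lung 8 were called (53.3%), 2 higher (14.4%) and 6 lower (38.9%). In skin 8 were called (40.7%), 4 higher (22%) and 4 lower (18.7%). In colon 5 were called (35.5%), 2 higher (19.1%) and 3 lower (16.4%), and in small intestine 8 (42.1%), 2 higher (22%) and 6 lower (20.1%). Against blood, 1 factor was called in spleen (1.09% of all genes), and it was higher (0.857%, with 0.235% lower). In lung 5 were called (35.7%), 1 higher (8.99%) and 4 lower (26.7%). In skin 2 were called (37.1%), both higher (22.9%, with 14.2% lower), in colon 3 (31.9%), 1 higher (19.9%) and 2 lower (12%), and in small intestine 5 (44%), 1 higher (26%) and 4 lower (18%). In the order of levels given for each factor below, calls between other neighbours are set against 38.2% of all genes called between lung and colon, 50.2% between lung and small intestine, 35% between spleen and skin and 12.7% between colon and small intestine. The comparisons within each set share their marrow or blood libraries. The median absolute change of the 10 factors against marrow ran from 0.93 in spleen to 1.58 in lung, beside 0.57 and 0.87 over all genes in the same comparisons. Against blood the factors' median was 0.3 in spleen, 0.88 in lung, 0.45 in skin, 0.58 in colon and 1.02 in small intestine, beside 0.23, 0.56, 0.65, 0.6 and 0.72 over all genes.

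**Figure D2:**
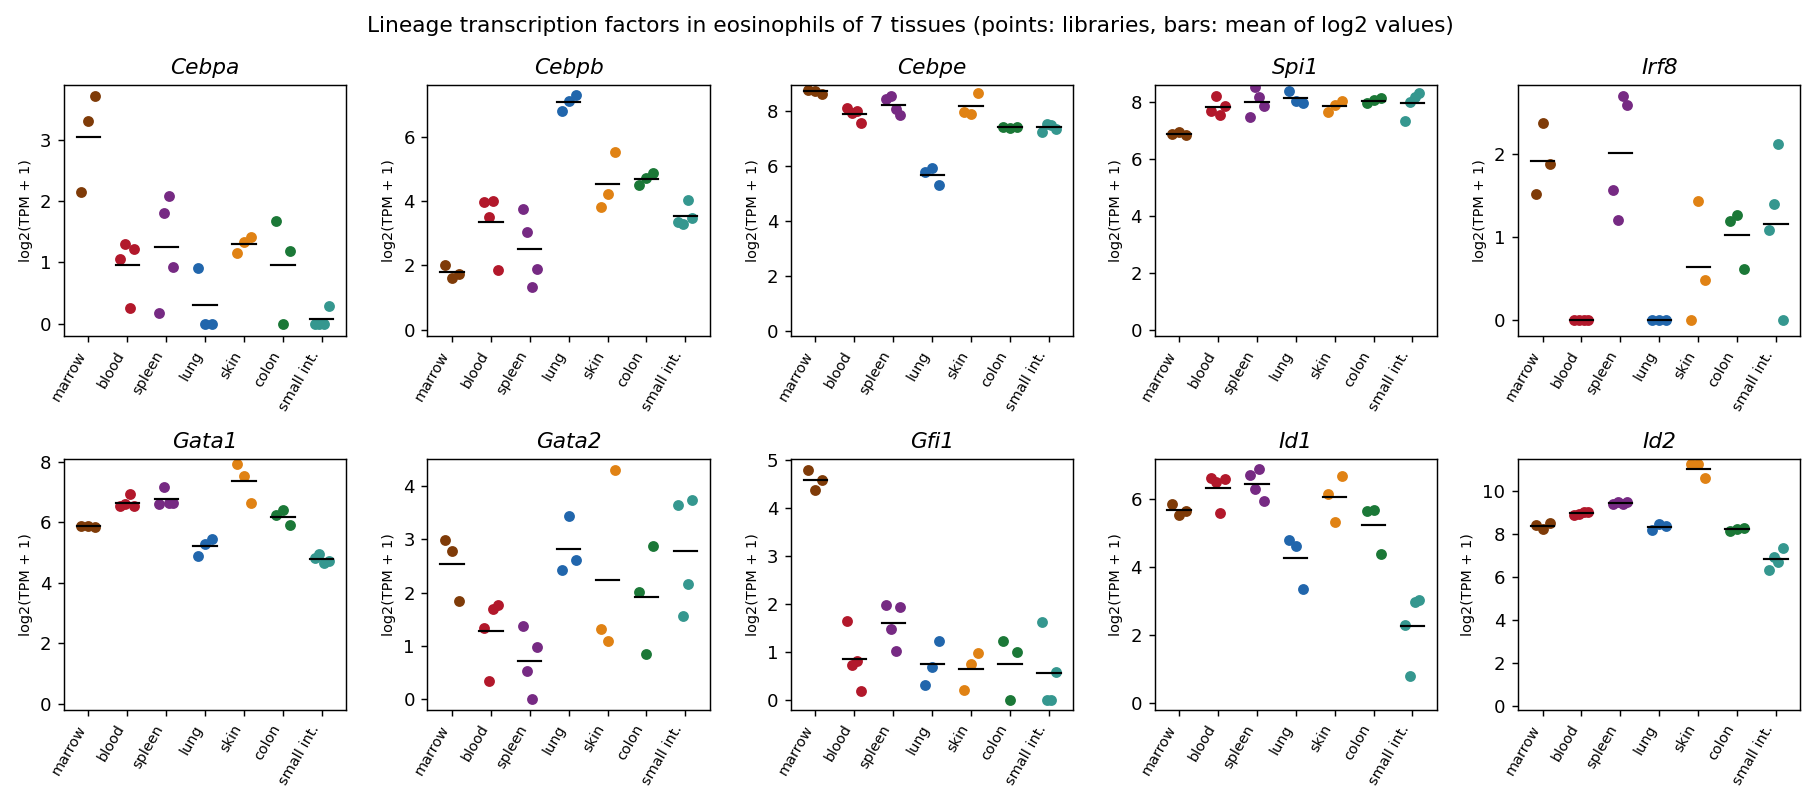
Level of each factor, as log2(TPM + 1), in each library (points) with the mean of the log2 values (bars) in eosinophils of 7 tissues. Gfi1 and Cebpa are highest in marrow, Cebpb in lung and Id2 in skin, and Id1, Id2 and Gata1 are lowest in small intestine.

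Of the summed TPM of Cebpa, Cebpb and Cebpe, Cebpe gave most in every tissue but lung, where Cebpb did. Cebpa fell from marrow to every other tissue, Cebpe fell from marrow to every other tissue and fell furthest in lung, and Cebpb rose in every tissue but spleen and most in lung. Cebpe (chr14:54710360-54712174 in mm10, minus strand) encodes the factor of terminal granulocyte differentiation. It stood at 435, 419.6 and 395 TPM in marrow, at 277, 240.3, 253 and 188 TPM in blood and at 344, 369, 265 and 229 TPM in spleen. Its levels were 53.1, 59.0 and 38.6 TPM in lung, 248, 234 and 402 TPM in skin, 171, 165 and 168 TPM in colon, and 149, 185, 179 and 162 TPM in small intestine. All 3 lung libraries lay below every other library, and apart from skin replicate 4 all libraries outside marrow lay below the 3 marrow libraries.

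Relative to the median gene, Cebpe was lower in lung than in marrow (change -2.46, 95% interval -2.87 to -2.05, limma adjusted p = 4.61e-12). The falls were -1.29 in colon (limma adjusted p = 9.6e-06), -1.28 in small intestine (2.84e-06) and -0.75 in blood (0.00142). Those in spleen (-0.54, limma adjusted p = 0.0497) and skin (-0.61, 0.0332) were near the threshold. The spleen call ended without any 1 of the marrow libraries and without spleen replicate 3 or 4. It also ended with a pseudocount of 0.1, with the replicate block and with only the 2 tissues in the fit, with adjusted p up to 0.166. The skin call ended without any 1 of the marrow libraries, without skin replicate 1 or 2 or with only the 2 tissues in the fit, also with adjusted p up to 0.166. Against blood, lung was lower by -1.81 (-2.2 to -1.43, limma adjusted p = 7.99e-10). Colon (-0.6, limma adjusted p = 0.0459) and small intestine (-0.63, 0.0229) were lower too. The colon call ended without blood replicate 1, 2 or 3 or any 1 colon library, and the small intestine call without blood replicate 1 or 3 or small intestine replicate 1, with adjusted p up to 0.126 and 0.0795. In the order of levels marrow stood above spleen, skin and blood, which did not differ beyond their spread as neighbours. Small intestine and colon followed at 169 and 168 TPM on average, and lung came last.

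Cebpb (chr2:167688915-167690418, plus strand) encodes the C/EBP factor of activated and inflammatory myeloid cells. Its levels were 3.02, 2.07 and 2.29 TPM in marrow, 14.8, 10.5, 15.0 and 2.61 TPM in blood, and 12.7, 7.29, 1.5 and 2.74 TPM in spleen. They were 110.3, 138 and 159 TPM in lung, 13.3, 17.7 and 45.2 TPM in skin, 21.5, 25.3 and 28.3 TPM in colon, and 9.27, 8.77, 15.6 and 10.1 TPM in small intestine. The 3 lung libraries lay above all others, and blood replicate 4 and spleen replicates 3 and 4 lay no higher than the top of the marrow range. Lung exceeded marrow by 5.89 (4.77 to 7, limma adjusted p = 1.43e-08) and blood by 4.17 (3.13 to 5.21, limma adjusted p = 2.38e-06). Against marrow, Cebpb also rose in colon (2.92, limma adjusted p = 0.000112), skin (2.68, 0.000199), small intestine (1.78, 0.00633) and blood (1.62, 0.0185). The blood call ended without marrow replicate 2 or 3 or blood replicate 1 or 3, with adjusted p up to 0.0642. Spleen was 0.68 above marrow (-0.37 to 1.72, limma adjusted p = 0.297). Colon exceeded blood by 1.25 (limma adjusted p = 0.0424), a call that ended without blood replicate 2 or 4 or any 1 colon library, and under 6 other alternatives, median-ratio scaling among them, with adjusted p up to 0.183. Lung was the only tissue that differed from the next in the order of levels (lung, colon, skin, small intestine, blood, spleen, marrow).

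Levels of Cebpb moved with genes of the early response to handling, such as Fos and Dusp1, in part. The 14 genes of that list summed to 669 to 808 TPM in marrow and to 6742, 6747, 6545 and 3767 TPM in blood replicates 1 to 4. They summed to 2221, 3714, 1491 and 1576 TPM in spleen, where replicates 3 and 4 also had the lowest Cebpb. In lung the sum was 6180 to 7258 TPM, within the ranges of skin (4879 to 7421 TPM) and small intestine (5578 to 9251 TPM). In colon it was 14340 to 20520 TPM, while Cebpb was highest in lung. The part of this response in the Cebpb levels was not tested.

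Cebpa (chr7:35119293-35121928, plus strand), the C/EBP factor of early myeloid progenitors, was low in all tissues. It was at 3.41, 8.83 and 12.0 TPM in marrow, at 1.08, 1.46, 0.2 and 1.33 TPM in blood, and at 0.13, 2.48, 3.25 and 0.9 TPM in spleen. In lung it was at 0.87, 0 and 0 TPM, in skin at 1.23, 1.52 and 1.65 TPM, in colon at 2.18, 0 and 1.27 TPM, and in small intestine at 0, 0, 0 and 0.22 TPM. No library outside marrow reached the lowest marrow library. The fall from marrow was -2.03 in blood (-2.97 to -1.09, limma adjusted p = 0.000791) and was largest in small intestine, at -2.95 (-3.89 to -2.01, limma adjusted p = 7.05e-06). Spleen (-1.85, limma adjusted p = 0.0036), lung (-2.16, 4.98e-05), skin (-1.82, 0.00556) and colon (-2.08, 0.00129) were also lower. With a pseudocount of 0.1 the calls in skin and spleen ended, at adjusted p of 0.134 and 0.0739. No tissue was called against blood, and marrow alone differed from its neighbour in the order of levels.

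As a share of the summed TPM of the 3 C/EBP genes, Cebpe was at 97.5% ± 1.02 (SD, n = 3) in marrow, 95.5% ± 1.66 (n = 4) in blood and 97.6% ± 0.92 (n = 4) in spleen. In lung the Cebpe share was 27.3% ± 6.84 (n = 3) and the Cebpb share 72.6% ± 7.03. The Cebpb share was 12.9% ± 1.66 (n = 3) in colon, 7.38% ± 2.53 (n = 3) in skin and 6.06% ± 1.44 (n = 4) in small intestine. The 3 lung libraries, at 67.1% to 80.5%, thus lay far above the highest library elsewhere, a colon library at 14.3%.

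**Figure D3:**
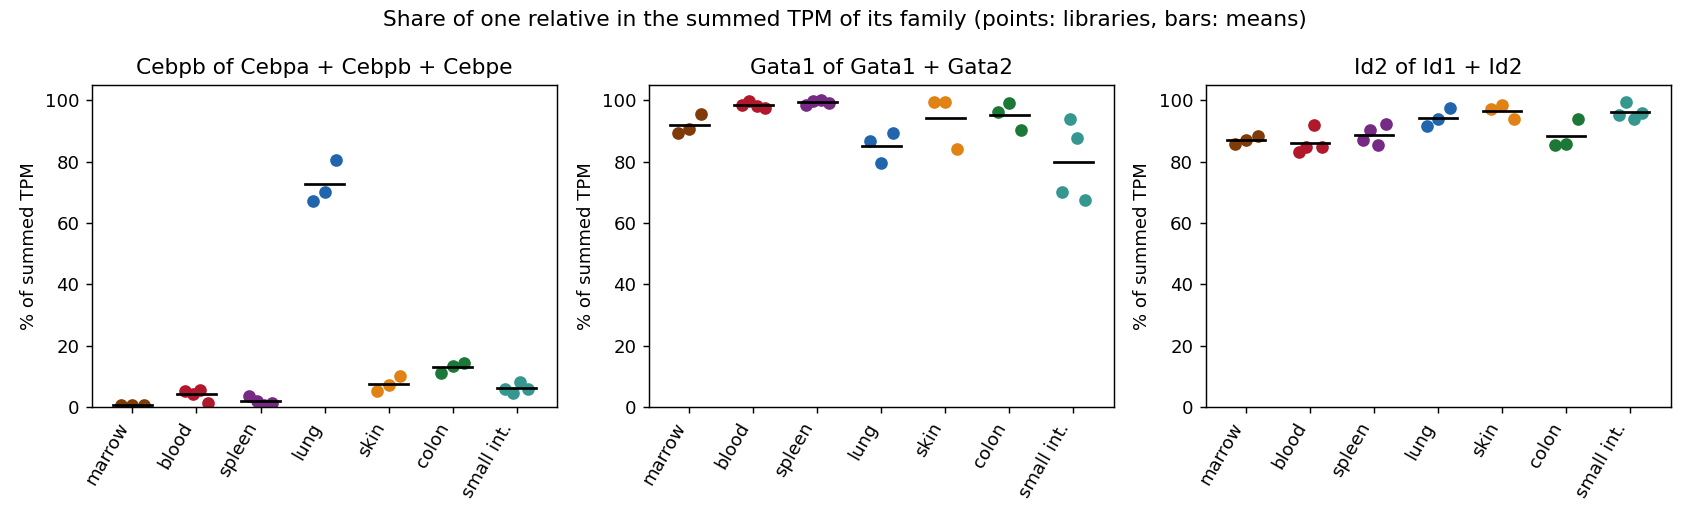
Share of Cebpb, Gata1 and Id2 in the summed TPM of their families, in percent, in each library (points) with the mean (bars). Cebpb takes 67.1% to 80.5% in lung and at most 14.3% elsewhere, and Gata1 has its lowest mean share in small intestine.

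Among relatives and regulators of C/EBP proteins (7 listed, 6 tested), Trib1, a pseudokinase that directs C/EBPalpha to degradation, rose with departure from marrow and blood into lung, skin and gut. It averaged 13.5 TPM in marrow, 20.6 TPM in blood, 289 TPM in lung, 121 TPM in skin, 256 TPM in colon and 213 TPM in small intestine. Its change from marrow was 4.93 in lung (limma adjusted p = 1.16e-11) and 3.93 in small intestine (1.4e-11). Ddit3, the stress-induced C/EBP relative CHOP, was at 34.0 TPM in marrow, 732 TPM in colon and 826 TPM in small intestine, changes of 4.37 (limma adjusted p = 1.37e-10) and 4.5 (1.61e-11).

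The GATA factors differed in level and in pattern. Gata1 was highest in skin and lowest in small intestine and lung, whereas Gata2 was low throughout and varied widely within tissues. Gata1 (chrX:7959260-7978071, minus strand) was at 58.5, 57.4 and 56.2 TPM in marrow, at 91.5, 96.9, 122 and 93.1 TPM in blood, and at 96.6, 143, 99.3 and 99.0 TPM in spleen. It was at 28.4, 38.2 and 42.5 TPM in lung, at 246, 186 and 99.7 TPM in skin, at 74.3, 85.0 and 59.5 TPM in colon, and at 27.1, 30.0, 24.5 and 25.4 TPM in small intestine. All blood and spleen libraries lay above all marrow libraries, and all lung and small intestine libraries lay below them.

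Gata1 rose from marrow to blood by 0.85 (0.38 to 1.32, limma adjusted p = 0.00811), to spleen by 0.85 (limma adjusted p = 0.00347) and to skin by 1.45 (0.94 to 1.95, 1.57e-05). In small intestine it was lower than in marrow by -1.05 (-1.52 to -0.58, limma adjusted p = 0.000388) and lower than in blood by -2.01 (-2.44 to -1.57, 5.52e-08). Lung was lower than blood by -1.03 (-1.5 to -0.56, limma adjusted p = 1.82e-05). The lung call against marrow (limma adjusted p = 0.0251) lay within the shift of all genes, since relative to the median gene the difference was -0.07 (-0.58 to 0.43), and it ended under median-ratio scaling (adjusted p = 0.239). It also ended without any 1 of the marrow libraries or lung replicate 1. Skin exceeded blood by 0.55 (0.08 to 1.02, limma adjusted p = 0.0144), with overlap of the groups. This call ended under median-ratio scaling, under quantile normalization and with haemoglobin, granule and neutrophil genes left out. It also ended with only the 2 tissues in the fit and without skin replicate 1 or 2, with adjusted p up to 0.281. Colon was not called against marrow (0.34, -0.16 to 0.84) or blood (-0.57, -1.04 to -0.1), and the difference from blood was called under median-ratio scaling. In the order of levels skin stood above spleen (limma adjusted p = 0.0381), and spleen and blood, blood and colon, colon and marrow, and lung and small intestine did not differ as neighbours beyond their spread.

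Gata2 (chr6:88193891-88207032, plus strand) was at 6.94, 5.88 and 2.59 TPM in marrow, at 1.51, 0.27, 2.24 and 2.43 TPM in blood, and at 1.58, 0.45, 0 and 0.98 TPM in spleen. Its values were 4.38, 9.8 and 5.13 TPM in lung, 1.48, 1.14 and 18.7 TPM in skin, 3.02, 0.81 and 6.32 TPM in colon, and 11.6, 1.96, 3.49 and 12.3 TPM in small intestine. Skin replicate 4 set the mean of skin, and in small intestine replicates 1 and 4 were high and replicates 2 and 3 low. Only spleen was called against marrow (-1.87, -3.23 to -0.51, limma adjusted p = 0.0382), and that call ended without marrow replicate 1 or 2 or spleen replicate 2 or 3, under quantile normalization and with a pseudocount of 5, with adjusted p up to 0.137. Small intestine was 1.35 above blood (0.09 to 2.62, limma adjusted p = 0.0503), and lung was 1.97 above blood (0.6 to 3.33, 0.072). Both were called under some alternatives, the replicate block among them, with adjusted p down to 0.0179 and 0.01. No neighbours in the order of its levels differed beyond their spread. Gata1 gave 99.3% ± 0.72 (n = 4) of the summed TPM of Gata1 and Gata2 in spleen, 85.2% ± 5 (n = 3) in lung and 79.7% ± 13 (n = 4) in small intestine. Skin replicate 4, with the highest Gata2 and the highest sum of mast cell and basophil genes (551 TPM), had the lowest Gata1 and the highest Cebpb and Cebpe of the 3 skin libraries. The part of mast cells and basophils in the Gata1 and Gata2 levels of skin was not tested.

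Of the partners of GATA factors (10 listed, 7 tested), Lmo2, the bridge of the GATA-1 complex, fell from 23.2 TPM in marrow to 5.97 TPM in blood (-1.88, limma adjusted p = 0.0115) and 0.81 TPM in lung (-3.28, 1.63e-05). Runx1, a core haematopoietic factor, rose from 13.9 TPM in marrow to 26.2 TPM in blood (0.95, limma adjusted p = 0.00831) and 85.1 TPM in small intestine (2.58, 7.28e-09).

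Spi1 was the most even of the factors, and it rose from marrow to each other tissue. It encodes PU.1, an Ets factor of myeloid and B cells (chr2:91082390-91115756, plus strand). Its levels were 117, 123 and 112 TPM in marrow, 203, 292, 184 and 231 TPM in blood, 174, 363, 289 and 229.7 TPM in spleen, and 335, 259 and 246 TPM in lung. In skin they were 200.2, 238 and 257 TPM, in colon 246, 264 and 281 TPM, and in small intestine 162, 254, 288 and 315 TPM. Every library outside marrow lay above the 3 marrow libraries. The rise was 0.99 in blood (0.54 to 1.43, limma adjusted p = 0.00143), 1.06 in spleen (limma adjusted p = 0.000278), 1.82 in lung (9.05e-05), 0.9 in skin (0.00143), 1.17 in colon (0.000254) and 1.09 in small intestine (0.000238). The skin call ended under quantile normalization and with haemoglobin, granule and neutrophil genes left out, with adjusted p up to 0.098. No tissue was called against blood, although lung was 0.73 above it relative to the median gene (0.29 to 1.18) and was called under median-ratio scaling (adjusted p = 0.0078). In the order of levels only marrow, at the bottom, differed from its neighbour, and the highest mean (lung) was 2.38 times the lowest.

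Irf8 was near the lower limit of what these tables hold. Irf8 (chr8:120736358-120756694, plus strand) was listed at 0 in all 4 blood and all 3 lung libraries, so that no fold is given against them. It was at 1.86, 4.2 and 2.68 TPM in marrow, at 1.96, 1.3, 5.53 and 5.08 TPM in spleen, at 0, 1.71 and 0.39 TPM in skin, at 1.28, 1.41 and 0.53 TPM in colon, and at 1.13, 1.63, 3.36 and 0 TPM in small intestine. Blood (limma adjusted p = 0.00116) and lung (0.00133) were called lower than marrow, and spleen (0.00834) and small intestine (0.0229) were called higher than blood. The small intestine call ended with a pseudocount of 5 and without small intestine replicate 2 or 3, with adjusted p up to 0.111, and the spleen call ended with only blood and spleen in the fit (adjusted p = 0.083). Skin was called lower than marrow (-1.36, limma adjusted p = 0.0303), and this call ended without marrow replicate 2 or 3 or skin replicate 1 or 4, under quantile normalization and with the replicate block, with adjusted p up to 0.23. No neighbours in its order of levels differed beyond their spread. Dendritic cell genes, a class in which Irf8 is known to be high, had 4 of 9 members in the table and summed to 109 to 306 TPM in spleen, 1.42 to 61.2 TPM in blood, 55.1 to 87.0 TPM in lung and 8.52 to 14.2 TPM in marrow. They summed to 93.8 to 169 TPM in skin, 86.2 to 326 TPM in colon and 104 to 572 TPM in small intestine, while Xcr1, Clec9a and Siglech were not analysed here. B and plasma cell genes (2 of 9 in the table) summed to 12.7 to 146 TPM in spleen and 21.59 to 30.55 TPM in marrow. They summed to 0 to 9.53 TPM in blood and 0.29 to 5.4 TPM in lung. The sums were 0 to 2.76 TPM in skin and 1.83 to 17.8 TPM in colon. In small intestine replicates 1 to 4 they were 20.9, 32.1, 918 and 13.8 TPM. Replicate 3 had the highest sum and the highest Irf8 in both spleen and small intestine. The part of either list in the Irf8 values was not tested.

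Other Ets and IRF relatives (14 listed, 12 tested) had 6 members higher and 2 lower in blood than in marrow, where 15.3% and 19.3% of all genes were. Their median change in that comparison was 0.93, beside 0.99 for Spi1. Ets2, an Ets factor downstream of growth and inflammatory signals, was at 5.94 TPM in marrow, 14.4 TPM in blood, 282 TPM in lung, 151 TPM in skin, 436 TPM in colon and 387 TPM in small intestine. Its change from blood was 4.65 in lung (limma adjusted p = 3.24e-13), 4.74 in colon (1.29e-14) and 4.53 in small intestine (3.72e-15). Irf5, an interferon regulatory factor of myeloid inflammation, rose from 14.3 TPM in marrow to 46.3 TPM in blood (1.71, limma adjusted p = 0.000188), 205 TPM in lung (4.37, 1.35e-09) and 273 TPM in skin (3.97, 3.72e-10).

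Gfi1 marked the marrow libraries most sharply. Gfi1 (chr5:107716657-107726036, minus strand), a zinc finger repressor of granulocyte progenitors, was at 26.7, 19.9 and 23.0 TPM in marrow. Its levels were 2.15, 0.67, 0.76 and 0.15 TPM in blood, 2.97, 1.8, 1.04 and 2.86 TPM in spleen, and 0.25, 0.61 and 1.36 TPM in lung. They were 0.16, 0.69 and 0.99 TPM in skin, 1.36, 0 and 1.01 TPM in colon, and 2.11, 0, 0 and 0.51 TPM in small intestine. The highest library outside marrow, spleen replicate 1, thus lay far below the lowest marrow library. The fall was -3.67 in blood (-4.56 to -2.79, limma adjusted p = 1.67e-07), -3.03 in spleen (7.38e-06), -3.25 in lung (2.03e-07), -4 in skin (1.42e-07), -3.83 in colon (2.15e-07) and -4 in small intestine (2.28e-08). No tissue differed from blood. Its calls against marrow held under every alternative and without any 1 library. Its relative Gfi1b went the other way, from 9.31 TPM in marrow to 29.3 TPM in blood (1.52, limma adjusted p = 0.00491), 46.8 TPM in lung (2.86, 7.52e-05), 97.5 TPM in skin (3.2, 5.86e-07), 113 TPM in colon (3.51, 2.09e-07) and 90.1 TPM in small intestine (3.22, 2.27e-07). Gfi1b is known from red cell and platelet development, and genes of red cells and platelets (9 of 11) summed to 39190 to 118900 TPM in blood and to 115 to 373 TPM in colon, where Gfi1b was highest. Their part in the Gfi1b levels was not tested.

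Id1 and Id2 shared a low point in small intestine and differed in where they were highest. Id2 (chr12:25093799-25097140, minus strand), the inhibitor that lymphoid and dendritic cells also depend on, was the most abundant of the 10 factors per length in blood, spleen, lung, skin and colon. It was at 342, 306 and 364 TPM in marrow, at 476, 491, 519 and 516 TPM in blood, at 679, 731, 672 and 733 TPM in spleen, and at 291, 355 and 338 TPM in lung. In skin it reached 2479, 2443 and 1586 TPM, while it was at 286, 298 and 308 TPM in colon and at 80.3, 121, 103 and 162 TPM in small intestine. All skin libraries lay above, and all small intestine libraries below, every other library.

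Skin exceeded marrow by 2.59 (2.22 to 2.96, limma adjusted p = 9.1e-12) and blood by 1.92 (1.57 to 2.26, limma adjusted p = 3.46e-10). Small intestine was below marrow by -1.54 (-1.89 to -1.2, limma adjusted p = 2.58e-08) and below blood by -2.28 (-2.6 to -1.95, 2.18e-11). Id2 also rose from marrow to blood (0.63, limma adjusted p = 0.00999) and spleen (1.01, 2.54e-05), and was lower in colon than in blood (-0.85, 0.00116). The blood call ended without marrow replicate 2 (adjusted p = 0.0584). The lung call against blood (limma adjusted p = 0.00595) lay within the shift of all genes at -0.19 (-0.53 to 0.16), and ended under median-ratio scaling (adjusted p = 0.404). In the order of levels skin differed from spleen, blood from marrow and colon from small intestine, while spleen and blood, marrow and lung, and lung and colon did not differ beyond their spread.

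Id1 (chr2:152736251-152737410, plus strand), an inhibitor induced by BMP signals, was at 56.5, 45.2 and 48.6 TPM in marrow, 96.5, 89.0, 46.5 and 93.5 TPM in blood, and 102, 77.2, 116 and 60.2 TPM in spleen. It was at 26.5, 23.2 and 9.25 TPM in lung, 69.1, 39.1 and 101 TPM in skin, 49.1, 49.5 and 19.6 TPM in colon, and 3.93, 0.73, 6.79 and 7.07 TPM in small intestine. All small intestine libraries lay below all other libraries. Small intestine was below blood by -4.18 (-5.04 to -3.32, limma adjusted p = 1.19e-08) and below marrow by -3.38 (-4.31 to -2.45, limma adjusted p = 7.99e-07). Lung was below blood by -1.64 (-2.57 to -0.71, limma adjusted p = 0.000848). The lung call against marrow (-0.84, -1.83 to 0.16, limma adjusted p = 0.0157) ended under median-ratio scaling and without lung replicate 3, with adjusted p up to 0.117. No other tissue was called. Colon was below blood by -1.19 (-2.12 to -0.26, limma adjusted p = 0.0686), a difference that was called under 5 alternatives, median-ratio and quantile scaling among them, with adjusted p down to 0.016. Small intestine was the only tissue that differed from its neighbour in the order of levels, with lung above it. Among Id3 and the E proteins, Id3 was at 0.36 TPM in blood, 14.8 TPM in skin (2.55, limma adjusted p = 0.00566), 7.83 TPM in colon (2.56, 0.00778) and 4.23 TPM in small intestine (1.73, 0.0311).

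**Figure D4:**
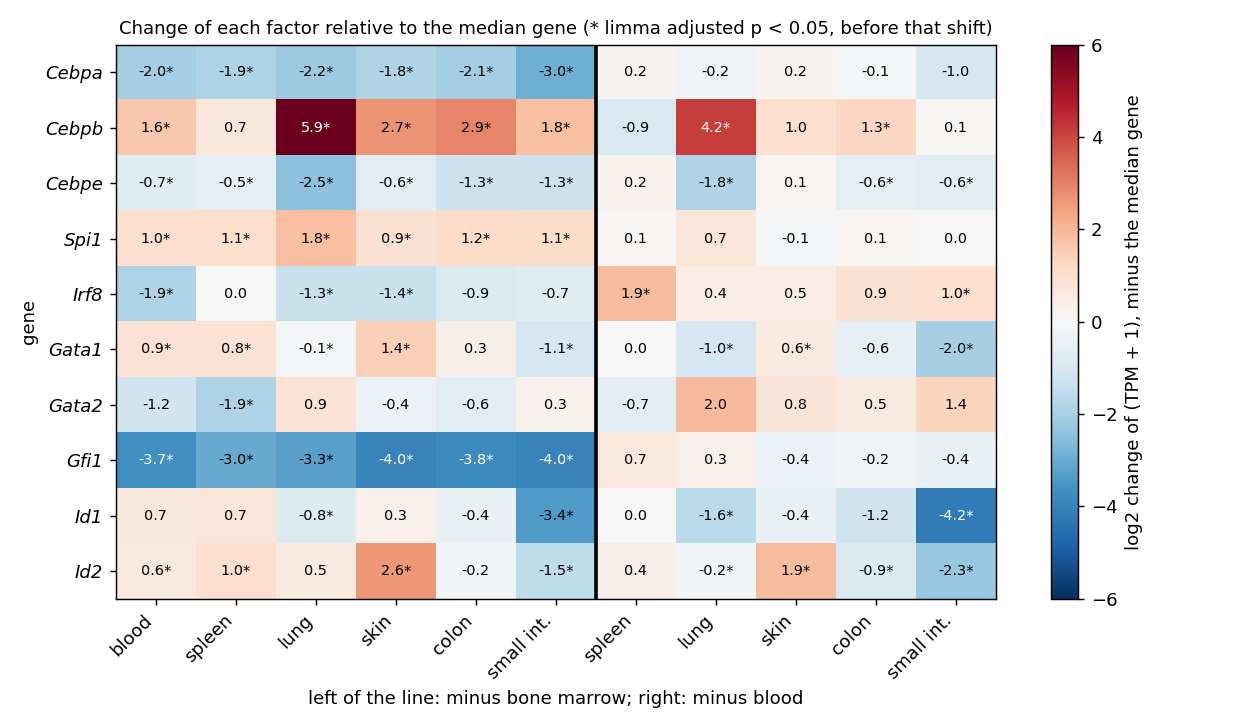
Change of each factor relative to the median gene, in log2 units of TPM + 1, in each tissue against marrow (left) and against blood (right), with a star where limma's adjusted p was under 0.05. The largest rise is that of Cebpb in lung (5.89 against marrow), and the largest falls are those of Id1 in small intestine (-4.18 against blood) and of Gfi1 in small intestine and skin (-4 against marrow).

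Across 6 lists of related and other lineage factors, 52 of 59 genes were tested. In blood 19 were higher and 8 lower than in marrow, where 15.3% and 19.3% of all genes were. In small intestine 19 were higher and 15 lower than in blood (26% and 18% of all genes), and in spleen 2 were higher and 0 lower than in blood (0.857% and 0.235%). Myb, a factor of immature and dividing progenitors, fell from 61.5 TPM in marrow to 0.41 TPM in blood (-5.51, limma adjusted p = 5.88e-09). Klf2, a factor of quiescence and trafficking, was at 19.2 TPM in marrow, 564 TPM in blood, 21.9 TPM in lung and 28.4 TPM in small intestine, which was -4.18 (limma adjusted p = 6.04e-09) and -4.53 (1.37e-09) against blood. Ikzf3, a lymphoid zinc finger factor, was at 17.0 TPM in marrow, 25.1 TPM in blood and 402 TPM in small intestine (3.81 against blood, limma adjusted p = 2.59e-14). Xbp1, a factor of secretory capacity that eosinophil progenitors need, rose from 19.0 TPM in blood to 161 TPM in colon (2.91, limma adjusted p = 1.58e-09) and 185 TPM in small intestine (3.07, 5.36e-11).

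Of 11 eosinophil genes known as targets of these factors, 5 were higher and 6 lower in blood than in marrow (15.3% and 19.3% of all genes). Their median change was -5.73. Prg2, which encodes major basic protein, fell from 72330 TPM to 78.0 TPM (-9.79, limma adjusted p = 1.61e-14). Ear1, one of a family of near-identical ribonuclease genes whose reads may be split, fell from 26490 TPM to 173 TPM. Spleen had 6 of the 11 higher than blood (0.857% of all genes), among them Prg2 at 7866 TPM (6.1, limma adjusted p = 3.94e-10). The eosinophil marker genes, mostly granule genes, summed to 51340 TPM in spleen replicate 1 and to 13820, 11510 and 8617 TPM in replicates 2, 3 and 4, whereas precursor genes were highest in replicate 4. In lung 2 of the 11 were higher and 4 lower than in blood (8.99% and 26.7% of all genes), with a median change of 0.765. The lower ones included Ccr3 (351 against 1195 TPM, -1.36, limma adjusted p = 9.02e-10) and Il5ra (27.7 against 86.0 TPM, -1.17, 2.48e-06). Gata1 and Cebpe were lower in lung as well, and a link between these factors and the target genes was not tested. Skin had the highest Csf2rb, the shared receptor chain of IL-3, IL-5 and GM-CSF, at 845 TPM against 131 TPM in blood (2.52, limma adjusted p = 3.84e-12).

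The genes whose log2(TPM + 1) was most like each factor over the 24 libraries were found among 7368 or 7369 genes with a mean of at least 10 TPM in at least 1 tissue. The 24 points share 7 tissues, so the values describe the tissue pattern. Gfi1 was most like Ms4a3 (Pearson r = 0.93), Nkg7 (0.927) and Rad51ap1 (0.927), which all had their highest mean in marrow. Cebpb was most like Dusp5 (0.895), Btg1 (0.894) and C5ar1 (0.886), each highest in lung and lowest in marrow. Cebpe was most like Ikzf1 (0.927), Mrpl22 (0.925) and Slc35c1 (0.917), each lowest in lung. Id2 was most like Nedd4 (0.944), Prkcd (0.933) and Apobec1 (0.913), each highest in skin and lowest in small intestine. Gata1 was most like Pla2g3 (0.905), Il1rl1 (0.902) and Tmcc1 (0.895), each lowest in small intestine. Il1rl1, the IL-33 receptor, averaged 147 TPM in skin and 0.47 TPM in small intestine. Id1 was most like Gpx1 (0.945), Il17ra (0.92) and Mapk14 (0.897), each highest in blood. Spi1 was most like Tesc (0.868), Prkx (0.842) and Ptpn1 (0.815), each lowest in marrow. The likeness was weaker for Cebpa (S100a1, Rnaset2b and Etfb, 0.825 to 0.813), Irf8 (Atp5g2, Cdk4 and Tacc3, 0.787 to 0.737) and Gata2 (Hat1, Sp140 and Hps4, 0.65 to 0.646).

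In the small intestine of reporter mice, Id2 was lower in Nmur1-positive than in Nmur1-negative eosinophils, and it was the only factor called of the 6 measured. Of all 7982 genes tested, 14.4% were called. Id2 stood at 63.2, 87.5, 70.1, 78.0 and 69.9 TPM in the positive libraries (replicates 1, 3, 4, 5 and 8) and at 175, 169, 164, 117, 87.1 and 125 TPM in the negative ones (replicates 2, 3, 4, 5, 7 and 8). The groups overlapped only between positive replicate 3 and negative replicate 7. Relative to the median gene the difference was -1.09 (-1.49 to -0.7, limma adjusted p = 0.00421), and it was in the same direction in each of the 4 same-numbered pairs. The call held under every alternative, the replicate block included (limma adjusted p = 0.00249).

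The other 5 factors overlapped between positive and negative cells. Cebpe was at 143, 126, 102, 136 and 142 TPM in positive and at 134, 117, 152, 189, 248 and 267 TPM in negative libraries, a difference of -0.66 (-1.09 to -0.24, limma adjusted p = 0.15). Cebpb was at 34.7, 12.8, 10.9, 19.2 and 7.32 TPM in positive and at 19.1, 14.5, 20.5, 37.5, 29.4 and 34.4 TPM in negative libraries (-0.91, -1.65 to -0.18, limma adjusted p = 0.197). Positive replicate 1 had the highest Cebpb of its group and the highest sum of early response genes, 21090 TPM against 7215 to 18210 TPM in the other positive libraries. Gata2 was at 16.1, 8.54, 11.4, 23.3 and 10.3 TPM in positive and at 0.85, 9.34, 13.2, 6.99, 6.57 and 10.9 TPM in negative libraries (0.67, -0.27 to 1.61, limma adjusted p = 0.196). Gata1 was at 21.4, 33.0, 16.4, 13.8 and 28.3 TPM in positive and at 15.9, 13.1, 28.5, 27.5, 43.3 and 46.1 TPM in negative libraries (-0.5, -1.19 to 0.2, limma adjusted p = 0.604). Spi1 was at 205, 292, 199, 229 and 192 TPM in positive and at 248, 312, 200.2, 156, 207 and 234 TPM in negative libraries (-0.22, -0.57 to 0.14, limma adjusted p = 0.995). These intervals do not show that the factors act alike in the sorted cells.

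**Figure D5:**
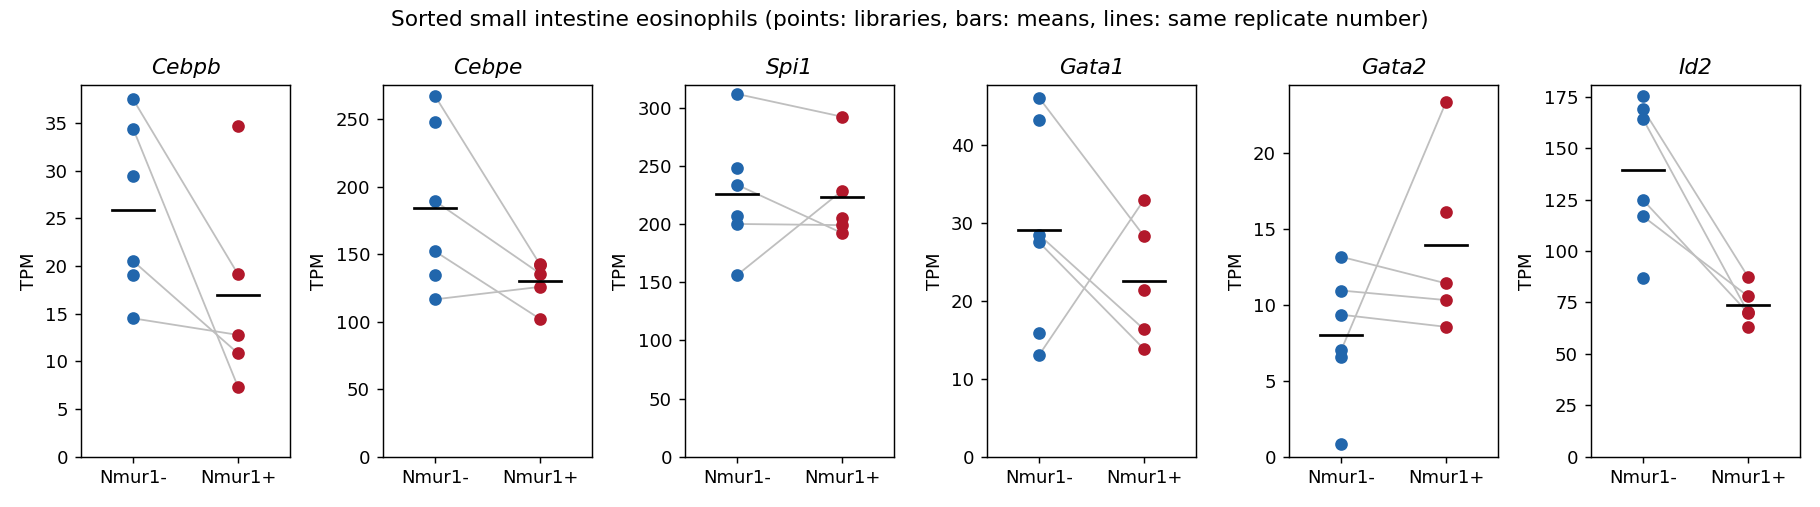
TPM of the 6 factors in Nmur1-negative (blue) and Nmur1-positive (red) small intestine eosinophils, with points for libraries, bars for means and grey lines joining libraries of the same replicate number. Id2 lies at 63.2 to 87.5 TPM in positive and 87.1 to 175 TPM in negative libraries, and the other 5 factors overlap broadly.

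Of the 45 other lineage factors tested in the sort, 7 were higher and 1 lower in positive cells, where 9.18% and 5.25% of all genes were. Ets2 was at 602 against 337 TPM (0.62, limma adjusted p = 0.000467), Ets1 at 20.1 against 8.53 TPM (0.89, 0.0177) and Nfil3, a factor of innate lymphoid differentiation, at 51.1 against 27.2 TPM (0.67, 0.0122). Irf5 was lower, at 91.2 against 141 TPM (-0.81, limma adjusted p = 0.0319). Of the eosinophil target genes (7 of 11 tested), Prg2 was lower (14.6 against 56.4 TPM, -2.13, limma adjusted p = 0.00143) and Siglecf higher (242 against 161 TPM, 0.39, 0.0236). Monocyte and macrophage genes (6 of 14 in the table) summed to 347 to 788 TPM in positive and 149 to 230 TPM in negative libraries, and 4 of the 6 were higher, Lyz2 among them (281 against 67.0 TPM, 1.91, limma adjusted p = 5.13e-05). None of the 6 was at 0 throughout a group, and Ly6c2 and Fcgr1 were not analysed here. Of the list of epithelial and stromal genes, 2 of 12 were in the table, Krt18 and Pecam1. They summed to 201 to 266 TPM in positive and 107 to 188 TPM in negative libraries, with no overlap. Epcam, Vil1, Col1a1 and Dcn were not analysed here, so this sum does not measure epithelium or stroma. Dendritic cell genes (3 of 9) summed to 339 to 472 TPM in positive libraries and to 226 to 636 TPM in negative ones apart from negative replicate 4, at 2077 TPM. The part of the cells that carry these genes in the Id2 difference was not tested.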

How the data were processed

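The authors deposited 2 tables of TPM (normalised transcript abundance), 1 for 24 tissue libraries and 1 for 11 sorted libraries. The submitters' processing notes name mm10 and the tools STAR 2.7.5c, RSEM 1.3.3 and cutadapt 2.10. For the annotation and the filter on genes, the sources used here give nothing. Every gene was above 0 in at least 3 tissue or 6 sorted libraries, so a gene present only in the 5 positive libraries could not be listed. TPM keeps no depth, so the depth of each library is unknown. Columns summed to 796048 to 890768 and 799585 to 863816 because genes had been removed. Since each table had its own normalisation, levels were compared only within a table. The single-cell sample was not analysed here.

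Linear models on log2(TPM + 1) were fitted in limma 3.58.1 (R 4.3.3), using lmFit and eBayes with trend. Genes with TPM of at least 1 in at least 3 tissue or 5 sorted libraries were tested, 9806 and 7982, with Benjamini-Hochberg adjustment over all of them in each comparison. Changes on this scale understate those of low genes. The fits were tested on simulated data, with changed genes drawn from those not low in level. Changes of 1 log2 unit were recovered in 45% of cases in blood against marrow and in 49% in the sort. Changes of 2 log2 units were recovered in 95% and 94%. Only 100 genes of each size were changed and no other gene differed between groups, whereas 34.6% of genes were called in blood against marrow. The shares may thus differ in the real tables, and they do not cover low factors such as Irf8 and Cebpa. A factor that was not called may therefore still differ. All 10 factors are named. From each list up to 4 called genes with the largest change could be named, and for each factor the 3 genes with the highest correlation. The factors and the lists were chosen with earlier results of these data known. The tests of the sort did not use the replicate numbers. A block on these numbers, which treats them as pairing, was run only as an alternative, and whether they pair the libraries remains uncertain. Deviations of the 4 same-numbered pairs correlated at 0.164 to 0.225, and those of the 26 other pairs at -0.175 to 0.194, with overlap. Alternatives were pseudocounts of 0.1 and 5, other filters and scalings, robust eBayes, a replicate block, fits of 2 tissues and leaving out each library. Coordinates are from GENCODE for mm10.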

Additional observations from a re-analysis of the deposited data

Results flagged for a closer look

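In groups of 4 to 6 libraries, 41 sets of values were examined for a single library far from the others, and 3 had one. Chance gives about 1 in 20 such sets. Cebpa was at 0.22 TPM in small intestine replicate 4 and listed at 0 in the 3 other small intestine libraries. Beside 3 values of 0, any value above 0 is flagged, so the rate given for chance does not apply to this set. Gata1 was at 143.48 TPM in spleen replicate 2, with the others at 96.62 to 99.31 TPM. Id1 was at 46.49 TPM in blood replicate 3, with the others at 88.98 to 96.47 TPM.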

How the results depend on the processing

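No change of a factor reversed its direction where it was called. Against blood, the 2 calls in skin became 1 with median-ratio scaling, quantile normalization, only the 2 tissues in the fit, or (chosen after seeing the data) haemoglobin, granule and neutrophil genes left out, and the 1 call in spleen became 0 with a filter at TPM of at least 5 or only the 2 tissues in the fit. Fewer genes were tested or fewer samples used in the filter and the fits of 2 tissues. Otherwise the cause was not tested. Leaving out 1 library gave 1 to 3 calls in both skin and colon against blood, 5 to 5 in lung, 4 to 5 in small intestine and 1 to 1 in spleen. Against marrow it gave 6 to 8 in blood, 5 to 7 in spleen, 7 to 8 in lung, 6 to 7 in skin, 5 to 5 in colon and 8 to 9 in small intestine. In the F-test it gave 9 to 10 calls, and in the sort 1 to 1. In spleen against blood the 107 genes called became 22 with only those tissues in the fit and 69 without blood replicate 1 or spleen replicate 4. Tissue replicate numbers did not pair the samples (correlation of deviations over 62 pairs -0.045 to 0.088), and a replicate block gave 9 calls in blood, 6 in spleen and 7 in skin against marrow. In the sort the replicate block, which treats the numbers as pairing, left the 1 call, of Id2, and changed no other call. Depth is unknown, so how far it limits the lowest factors, Irf8, Cebpa and Gata2, cannot be given.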
